A study of Rattus norvegicus with 16 samples.

Results

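Mapt, Tubb3 and Uchl1 are 3 genes with high transcript levels in neurons, followed here in rat neural stem and progenitor cells kept in fibroblast growth factor 2 (FGF-2), taken off it, or moved to platelet-derived growth factor AA (PDGF-AA). A cDNA feature of the array was assigned to a gene only when the chip annotation gave it exactly 1 symbol equal to one of these names. The 3 genes were found on 4 features, 1 for Mapt (H3042B12_1), 1 for Tubb3 (H3057B12_1) and 2 for Uchl1 (H3059F01_1 and H3129G09_1), among 6241 named genes and 12559 units tested. The values of the 2 Uchl1 features were averaged on each array.

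The cells came from the neocortex of Sprague-Dawley rat embryos on day 14.5 and grew as monolayers on polyornithine and fibronectin. Each of 16 two-colour arrays carried RNA of one culture condition in one dye and RNA of cells grown with FGF-2 at 10 ng/ml, the common comparator, in the other. The 4 conditions, with 4 arrays each, were PDGF-AA at 10 ng/ml for 6 d, no growth factor for 6 d, PDGF-AA at 10 ng/ml for 12 h and no growth factor for 12 h. The dyes were exchanged on 2 of the 4 arrays of every condition. All groups came from the same kind of mixed primary culture, first expanded in FGF-2, with no genetic change named in the labels, and the chip held mouse cDNA. Ratios to FGF-2 cells cannot show whether a cell type's markers were present in absolute terms. The labels state at least 2 RNA preparations without saying which arrays share one, so the p-values speak of variation among these arrays, some of which may be technical. Replicate numbers below follow the order of deposition and pair no arrays.

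All values are log ratios to the FGF-2 cells and leave out the spread of the FGF-2 cells themselves. The log base and the direction of the ratio were not stated. They were read as log2 of the condition over FGF-2, the likely direction because all 8 measured DNA replication genes lay below 0 in each of the 4 conditions, with medians of -0.37 in PDGF-AA at 6 d, -1.06 without factor at 6 d, -0.65 in PDGF-AA at 12 h and -1.95 without factor at 12 h. A gene was called changed when limma's Benjamini-Hochberg adjusted p over all 12559 units was under 0.05 in a fit with the 4 groups and a dye term.

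Mapt encodes tau, a protein that binds and stabilises axonal microtubules. Tubb3 encodes the beta-III tubulin isotype, one of the first tubulins made by newborn neurons and a standard stain for them. Uchl1 encodes ubiquitin C-terminal hydrolase L1, known as PGP9.5, an abundant neuronal enzyme that releases ubiquitin from small adducts and is used as a pan-neuronal marker. When cortical progenitors lose their mitogen they leave the cell cycle and give rise to neurons and glia, and transcripts of microtubule proteins accumulate as processes grow. In RNA from a whole culture, more neurons, more transcript per neuron and transcript from other cells cannot be told apart.

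RefSeq promoters of the rat assembly GRCr8, from 250 bases before to 50 bases after the start, were found for 2 of the 3 genes, Tubb3 and Uchl1, and are shown because these 2 genes were called at different times. That of Tubb3 lies at chr19:68365437-68365736 on the plus strand and that of Uchl1 at chr14:41849368-41849667 on the minus strand. Capitals mark the GC box GGGCGG, searched on both strands.
Tubb3: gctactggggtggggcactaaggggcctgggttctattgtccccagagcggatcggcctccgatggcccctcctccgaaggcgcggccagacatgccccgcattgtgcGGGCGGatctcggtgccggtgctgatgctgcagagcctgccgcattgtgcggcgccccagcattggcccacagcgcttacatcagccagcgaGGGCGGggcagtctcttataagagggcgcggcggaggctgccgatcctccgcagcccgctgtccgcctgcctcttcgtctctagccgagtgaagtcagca
Uchl1: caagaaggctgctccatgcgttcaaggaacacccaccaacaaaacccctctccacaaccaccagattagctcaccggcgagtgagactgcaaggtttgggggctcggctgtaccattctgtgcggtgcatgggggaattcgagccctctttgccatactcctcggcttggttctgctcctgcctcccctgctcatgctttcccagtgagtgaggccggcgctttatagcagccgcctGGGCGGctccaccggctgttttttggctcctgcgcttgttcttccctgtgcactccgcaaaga
The Tubb3 window held 2 GC boxes, starting at positions 109 and 201, and the Uchl1 window held 1, starting at position 238. A GC box occurred in 33.1% of 33469 rat promoters of the same length. Neither window held the E-box CANNTG, which 72.1% of those promoters held. The motif CCAAT, also searched on both strands, occurred once in the Tubb3 window and not in that of Uchl1, against 37.5% of all promoters. The match, at position 170, is on the opposite strand, so the printed bases there read attgg. These matches describe letters in a window and say nothing of binding.

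The 3 genes did not follow one course. Mapt was higher than in FGF-2 cells without factor at both times, Tubb3 was higher without factor at 6 d, and Uchl1 was higher at 12 h with and without PDGF-AA. None of the 3 passed the test in PDGF-AA at 6 d, where 3.22% of all units did. At an unadjusted p under 0.05 the limma fit gave 1 of the 3 genes there, Mapt, and 1949 of the 12559 units. Without factor at 6 d 2 of the 3 passed, where 13.7% of all units did, and 1 of 3 passed with PDGF-AA at 12 h, where 3.01% did, and 2 of 3 without factor at 12 h, where 11.7% did.

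**Figure D1:**
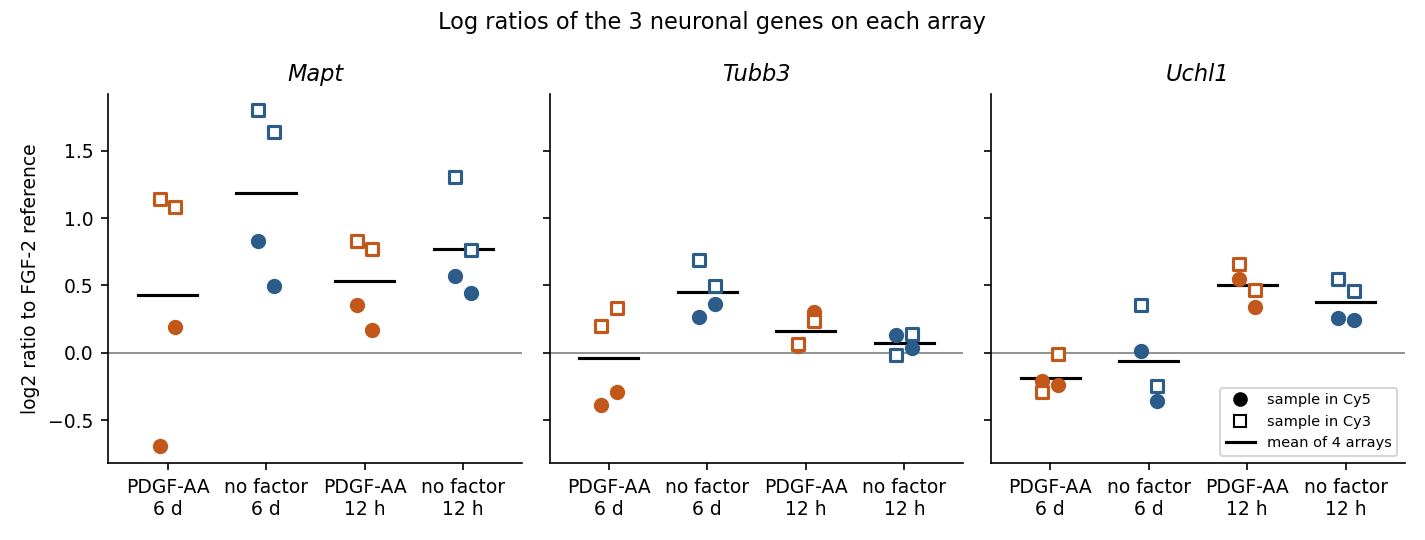
Log2 ratio to FGF-2 cells (vertical axis) of Mapt, Tubb3 and Uchl1 on each of the 16 arrays, by condition; filled circles are arrays with the sample in Cy5, open squares in Cy3, and bars are means of 4 arrays. In PDGF-AA at 6 d Mapt lay between -0.70 and 1.14, and without factor at 6 d between 0.49 and 1.80, with the Cy3 arrays of Mapt above its Cy5 arrays in every condition.

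Mapt had the highest estimate of the 3 genes in all 4 conditions. With PDGF-AA for 6 d its 4 arrays read -0.70, 0.19, 1.14 and 1.08. Without factor for 6 d they read 0.83, 1.80, 1.64 and 0.49. One PDGF-AA array was below 0 and all 4 arrays without factor were above it, and the ranges of both conditions overlapped. With PDGF-AA for 12 h the 4 arrays read 0.35, 0.83, 0.77 and 0.17. Without factor for 12 h they read 1.30, 0.57, 0.45 and 0.76. All 8 arrays at 12 h were above 0.

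The dye moved Mapt. Its log ratio was lower by 0.87 when the sample was in Cy5 than when it was in Cy3 (-0.87 ± 0.15 SE, limma adjusted p = 0.000359), one of 4907 units, 39.1% of those tested, with a dye effect past the threshold. Without factor at 6 d the mean was 0.66 over the Cy5 arrays and 1.72 over the Cy3 arrays. With PDGF-AA at 6 d these means were -0.25 and 1.11. As each condition held 2 arrays of either orientation, the effect cancels in the group means, and it was a term in the fit. With it removed, the SD over the 4 arrays was 0.46 with PDGF-AA at 6 d, where it had been 0.87, and 0.19 without factor at 6 d, where it had been 0.63.

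Mapt rose above the FGF-2 cells without factor and was not called with PDGF-AA. With PDGF-AA its log2 ratio was 0.43 ± 0.15 at 6 d (estimate ± SE, n = 4, limma adjusted p = 0.144) and 0.53 ± 0.15 at 12 h (limma adjusted p = 0.0625). Without factor it rose at 6 d by 1.19 ± 0.15 on the log2 scale, 2.28-fold (limma adjusted p = 5.79e-05), and at 12 h by 0.77 ± 0.15, 1.70-fold (limma adjusted p = 0.0023). These values placed it above 96.6% and 99.1% of the named genes with PDGF-AA at 6 d and 12 h, and above 99.1% and 98.8% without factor at 6 d and 12 h. Single arrays decided these 2 missed calls. Without PDGF-AA 6 d replicate 1, the array at -0.70, the 6 d value with PDGF-AA was 0.68 and was called (limma adjusted p = 0.00587). The 12 h estimate stayed at 0.53 and was called without that array (limma adjusted p = 0.0124) or without replicate 4 of no factor at 12 h (limma adjusted p = 0.0497).

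Tubb3 was called in 1 condition, at 6 d without factor. With PDGF-AA for 6 d its 4 arrays read -0.39, -0.30, 0.20 and 0.33. Without factor for 6 d they read 0.26, 0.69, 0.49 and 0.37. The arrays without factor were all above 0, and those with PDGF-AA were divided, with both Cy5 arrays below 0 and both Cy3 arrays above it. With PDGF-AA for 12 h the arrays read 0.048, 0.065, 0.23 and 0.30. Without factor for 12 h they read -0.020, 0.13, 0.034 and 0.14. The 8 arrays at 12 h lay between -0.020 and 0.30, the highest of them above the lowest array without factor for 6 d (0.26).

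At 6 d the Tubb3 estimate was -0.04 ± 0.10 with PDGF-AA (estimate ± SE, n = 4, limma adjusted p = 0.903), and without factor the gene rose by 0.45 ± 0.10 on the log2 scale, 1.37-fold (limma adjusted p = 0.00533). At 12 h the estimate was 0.16 ± 0.10 with PDGF-AA (limma adjusted p = 0.569) and 0.07 ± 0.10 without factor (limma adjusted p = 0.751). The PDGF-AA value at 6 d had an interval from -0.25 to 0.17 and took a positive sign, 0.05, without PDGF-AA 6 d replicate 1, and 0.02 without replicate 2. It was 0.28 with the first number of the array titles as a term and 0.31 when arrays with any but the most frequent such number were dropped. Either way the value rested on 1 PDGF-AA array of 6 d, and it was not called. The dye effect of Tubb3 was -0.21 ± 0.10 (limma adjusted p = 0.111).

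Uchl1 was called at 12 h and not at 6 d. With PDGF-AA for 6 d its 4 arrays read -0.21, -0.24, -0.29 and -0.013. Without factor for 6 d they read 0.014, 0.35, -0.25 and -0.36. With PDGF-AA for 12 h they read 0.55, 0.66, 0.47 and 0.34. Without factor for 12 h they read 0.55, 0.26, 0.24 and 0.46. All 8 arrays at 12 h were above 0 and all 4 PDGF-AA arrays at 6 d were below it.

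Against the FGF-2 cells Uchl1 rose at 12 h by 0.50 ± 0.10 with PDGF-AA, 1.42-fold (estimate ± SE, n = 4, limma adjusted p = 0.00926), and by 0.38 ± 0.10 without factor, 1.30-fold (limma adjusted p = 0.0198). With PDGF-AA at 12 h it ranked above 98.9% of named genes. At 6 d the log2 ratio was -0.19 ± 0.10 with PDGF-AA (limma adjusted p = 0.381) and -0.06 ± 0.10 without factor (limma adjusted p = 0.854). The call at 12 h without factor was lost without any one of the 4 arrays of that condition (adjusted p from 0.066 to 0.105). The call with PDGF-AA was lost without PDGF-AA 12 h replicate 1 (0.46, adjusted p = 0.101) or replicate 2 (0.48, adjusted p = 0.0779).

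**Figure D2:**
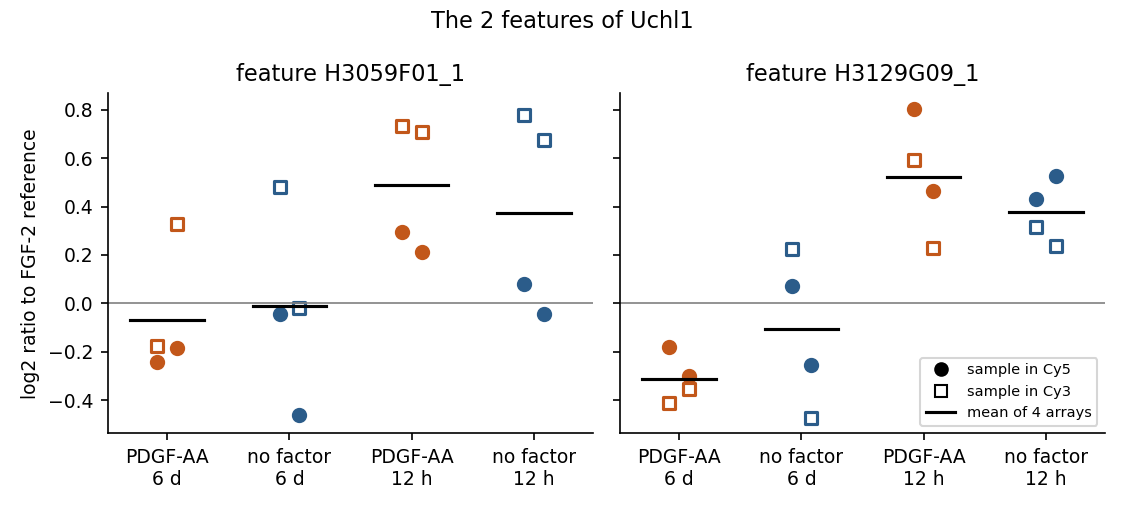
Log2 ratio to FGF-2 cells (vertical axis) of the 2 features of Uchl1 on each array, by condition; filled circles are arrays with the sample in Cy5, open squares in Cy3, and bars are means of 4 arrays. On both features the mean at 12 h is above 0 in either condition, and the dyes separate on H3059F01_1 at 12 h.

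Both cDNA features of Uchl1 gave a positive value at 12 h, and 1 of the 2 had a dye effect past the threshold. H3059F01_1 had a dye effect of -0.49 ± 0.11 (limma adjusted p = 0.00203), and H3129G09_1 had one of 0.15 ± 0.11 (limma adjusted p = 0.285). With PDGF-AA at 12 h H3059F01_1 gave 0.49 and H3129G09_1 gave 0.52 (limma adjusted p = 0.0172 and 0.0118 when each stood alone for the gene). Without factor at 12 h the features gave 0.37 and 0.38 (limma adjusted p = 0.0294 and 0.0285). With PDGF-AA at 6 d H3129G09_1 read between -0.41 and -0.18 on its 4 arrays. H3059F01_1 read between -0.24 and 0.33 there, with replicate 4 alone above 0.

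**Figure D3:**
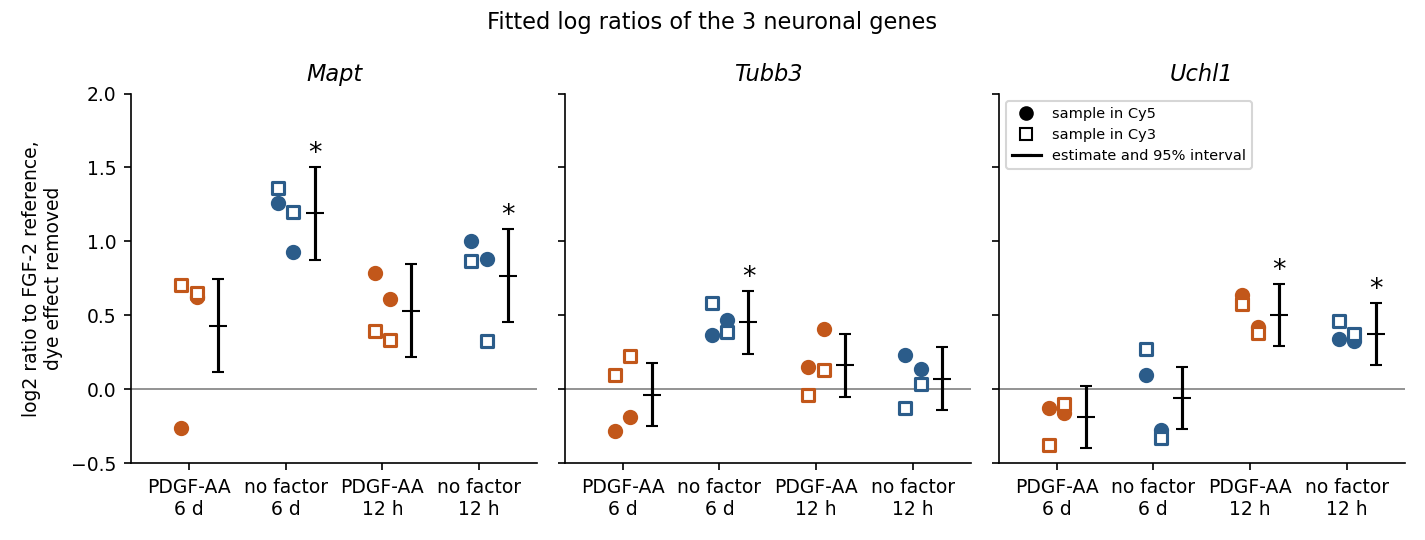
The same arrays after removal of each gene's fitted dye effect, as log2 ratio to FGF-2 cells (vertical axis); circles and squares are arrays, and the black marks are limma estimates with 95% intervals, with a star where the adjusted p was under 0.05. The PDGF-AA arrays of 6 d lie below all those without factor of 6 d for Mapt and Tubb3, and below all PDGF-AA arrays of 12 h for Uchl1. As read, the 6 d arrays of both conditions overlapped for Mapt and Tubb3, and neither 6 d difference was called. The share of all units that separate in this way was not counted.

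The direct question of whether PDGF-AA altered these transcripts was addressed by PDGF-AA minus no factor at one time, a difference in which the FGF-2 channel is common to both sides. At 6 d Mapt was 0.76 ± 0.21 lower in PDGF-AA on the log2 scale as fitted (-0.76, interval -1.20 to -0.32, n = 4 each), and Tubb3 differed by -0.49 ± 0.14 (interval -0.79 to -0.19). With the dye effect removed, every PDGF-AA array was below every array without factor for both genes, and as read the arrays overlapped for both. The share of all units whose arrays separate in this way was not counted, here or for the comparisons below. Neither gene passed the test over all units, with limma adjusted p = 0.397 for Mapt and 0.418 for Tubb3. Uchl1 differed by -0.13 ± 0.14 (interval -0.43 to 0.17, limma adjusted p = 0.841) and its arrays overlapped. So 0 of the 3 genes were called by limma, where 1 unit in all, 0.00796%, was. An unadjusted limma p under 0.05 was found for 2 of the 3, Mapt and Tubb3, and for 1100 of the 12559 units.

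The 6 d differences of Mapt and Tubb3 had the same sign in either dye. Over the Cy5 arrays, 2 per condition, Mapt averaged -0.25 in PDGF-AA and 0.66 without factor, a difference of -0.91. Over the Cy3 arrays it averaged 1.11 in PDGF-AA and 1.72 without factor, a difference of -0.61. Tubb3 differed by -0.65 over the Cy5 arrays and by -0.33 over the Cy3 arrays, and for both genes the PDGF-AA arrays were the lower ones in each dye. The array titles carry a first number whose meaning is not given. It was one and the same on all 8 arrays of 12 h, on 1 of the 4 PDGF-AA arrays of 6 d and on 3 of the 4 arrays of 6 d without factor, and the other 4 arrays of 6 d carried 3 other numbers. On the arrays with the commonest number alone, with 1 PDGF-AA array at 6 d taken to vary like the other groups, the difference was -0.46 for Mapt (limma adjusted p = 0.799) and -0.20 for Tubb3 (limma adjusted p = 0.9), and Uchl1 gave -0.01. The part of that number in the 6 d difference was not tested further.

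At 12 h PDGF-AA minus no factor was not called for any of the 3 genes. Mapt differed by -0.24 ± 0.21 (interval -0.68 to 0.20, limma adjusted p = 0.928). Tubb3 differed by 0.09 ± 0.14 (interval -0.21 to 0.39, limma adjusted p = 0.964), and Uchl1 by 0.13 ± 0.14 (interval -0.17 to 0.43, limma adjusted p = 0.936). The arrays overlapped for all 3 genes. By limma 0 of the 3 were called, where 2 units, 0.0159%, were. An unadjusted limma p under 0.05 was found for 0 of the 3 and for 681 of the 12559 units.

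**Figure D4:**
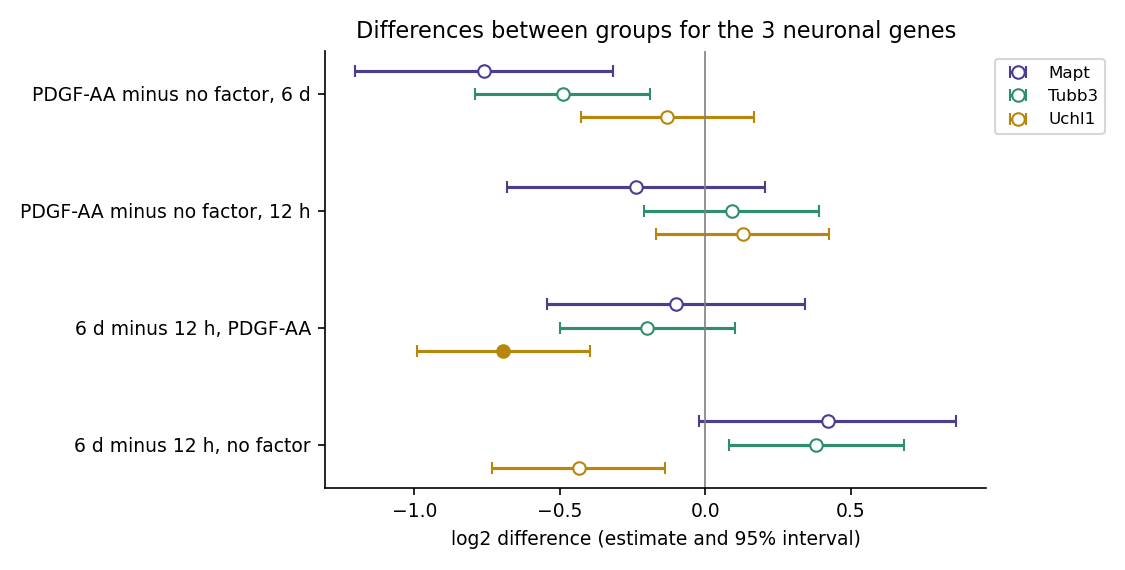
Differences between conditions for Mapt, Tubb3 and Uchl1 on the log2 scale (horizontal axis), as limma estimates with 95% intervals; filled points had an adjusted p under 0.05 over all units. The filled point is Uchl1 at 6 d minus 12 h with PDGF-AA, at -0.69.

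Of the 3 genes Uchl1 alone passed the test between times, and with PDGF-AA only. In that condition it fell by 0.69 ± 0.14 on the log2 scale at 6 d relative to 12 h, 1.62-fold (estimate ± SE, n = 4 each, limma adjusted p = 0.0221), and all 4 arrays at 6 d were below all 4 at 12 h, as read and with the dye effect removed. It was 1 of the 3 genes called, where 1.07% of units were. The feature H3129G09_1 alone gave -0.83 (limma adjusted p = 0.0115), and H3059F01_1 alone gave -0.56, which was not called (limma adjusted p = 0.0985). The call was lost without PDGF-AA 6 d replicate 2 (-0.71) or 3 (-0.63), or without PDGF-AA 12 h replicate 1 (-0.65) or 2 (-0.67), with adjusted p from 0.0673 to 0.0956. On the arrays with the commonest title number, which leave 1 PDGF-AA array at 6 d, taken to vary like the other groups, the difference was -0.64 (limma adjusted p = 0.383). Mapt differed between these times by -0.10 ± 0.21 (limma adjusted p = 0.904) and Tubb3 by -0.20 ± 0.14 (limma adjusted p = 0.65). The Mapt value was 0.15 without PDGF-AA 6 d replicate 1.

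Without factor, 6 d minus 12 h was 0.42 ± 0.21 for Mapt (limma adjusted p = 0.487) and 0.38 ± 0.14 for Tubb3 (limma adjusted p = 0.243), and all 4 Tubb3 arrays at 6 d were above all 4 at 12 h. For Uchl1 it was -0.43 ± 0.14 (limma adjusted p = 0.158). None of the 3 was called by limma, where 1.87% of units were. An unadjusted limma p under 0.05 was found for 2 of 3, Tubb3 and Uchl1, and for 1430 of the 12559 units. The time by treatment interaction, the change from one time to the other with PDGF-AA minus that without, was -0.52 ± 0.30 for Mapt, -0.58 ± 0.20 for Tubb3 and -0.26 ± 0.20 for Uchl1. The limma adjusted p was 0.995 for each. No unit in the whole table (0%) passed this test with limma, and 497 had an unadjusted p under 0.05, Tubb3 among them.

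Within each gene the order of the 4 conditions can be read from the estimates. For Mapt the order from the highest was no factor at 6 d (1.19), no factor at 12 h (0.77), PDGF-AA at 12 h (0.53) and PDGF-AA at 6 d (0.43). For Tubb3 it was no factor at 6 d (0.45), PDGF-AA at 12 h (0.16), no factor at 12 h (0.07) and PDGF-AA at 6 d (-0.04). For Uchl1 it was PDGF-AA at 12 h (0.50), no factor at 12 h (0.38), no factor at 6 d (-0.06) and PDGF-AA at 6 d (-0.19). Of the neighbours in these orders that were compared directly, none differed past the threshold, and the array ranges of neighbours overlapped except for Uchl1 between 6 d and 12 h without factor, once the dye effect was removed.

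Across the 16 arrays, with the dye effect removed, Mapt and Tubb3 had the highest correlation of the 3 pairs. Pearson's r between Mapt and Tubb3 was 0.73 and Spearman's rho was 0.68. It was 0.51 without the 2 arrays farthest from the median of Mapt, and 0.52 within conditions. Pearson's r was -0.06 between Mapt and Uchl1 and -0.07 between Tubb3 and Uchl1. The arrays share their condition and the FGF-2 channel, so these are descriptions of 16 points in 4 groups.

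The named genes most like each member over the 16 arrays were ranked by Pearson's r among 6240 others. For Mapt they were Irf3, an interferon regulatory transcription factor (r = 0.936), Atp6v0d1, a subunit of the vacuolar proton pump (0.926), Ctsa, the lysosomal protease cathepsin A (0.888), Nlgn2, the synaptic adhesion protein neuroligin 2 (0.871), and Atat1, an alpha-tubulin acetyltransferase (0.871). Ctsa averaged 0.36 with PDGF-AA at 6 d, 1.12 without factor at 6 d, 0.48 with PDGF-AA at 12 h and 0.72 without factor at 12 h. For Tubb3 they were Ap1s2, a clathrin adaptor subunit (0.85), Pla2g7, a secreted phospholipase (0.837), Mllt1 (0.787), Nudt4 (0.774) and Deaf1, a transcription factor (0.769). For Uchl1 they were Wwc1, known as KIBRA (0.932), Sgce, epsilon-sarcoglycan (0.908), Igf2bp3, an RNA-binding protein (0.901), Ubp1 (0.899) and Cox7a2l (0.896). Igf2bp3 averaged -0.44 with PDGF-AA at 6 d, -0.36 without factor at 6 d, 0.24 with PDGF-AA at 12 h and 0.14 without factor at 12 h. Within conditions r was between 0.69 and 0.89 for the genes like Mapt, between 0.48 and 0.70 for those like Tubb3, and between 0.52 and 0.82 for those like Uchl1.

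Genes of neurons and of the members' pathways were taken from 10 lists with 197 genes besides the members, of which 41 were measured. The lists also hold genes that most cells express, among the measured ones 9 of the list of tau kinases and phosphatase subunits and 6 genes of ubiquitin handling. Cdk5rap2, among those 9, is neither a kinase nor a phosphatase subunit. They were chosen with earlier results of these data known, so their counts beside those of all units are descriptions. At 6 d 3 of the 41 rose with PDGF-AA and none fell, with a median log2 ratio of 0.05, and 8 rose and 1 fell without factor, with a median of 0.10, beside 0.00 over all units, of which 3.22% were called with PDGF-AA and 13.7% without factor. At 12 h 1 rose with PDGF-AA and none fell, with a median of 0.08, and 9 rose and 1 fell without factor, with a median of 0.08, where 3.01% of all units were called with PDGF-AA and 11.7% without factor. Of the tau kinases Fyn is among the genes that rose with PDGF-AA at 6 d and without factor at both times, and Cdk5 and Mark4 are among those that rose without factor at 12 h. In PDGF-AA minus no factor 0 of the 41 were called by limma at either time, with medians of -0.10 at 6 d and -0.01 at 12 h.

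**Figure D5:**
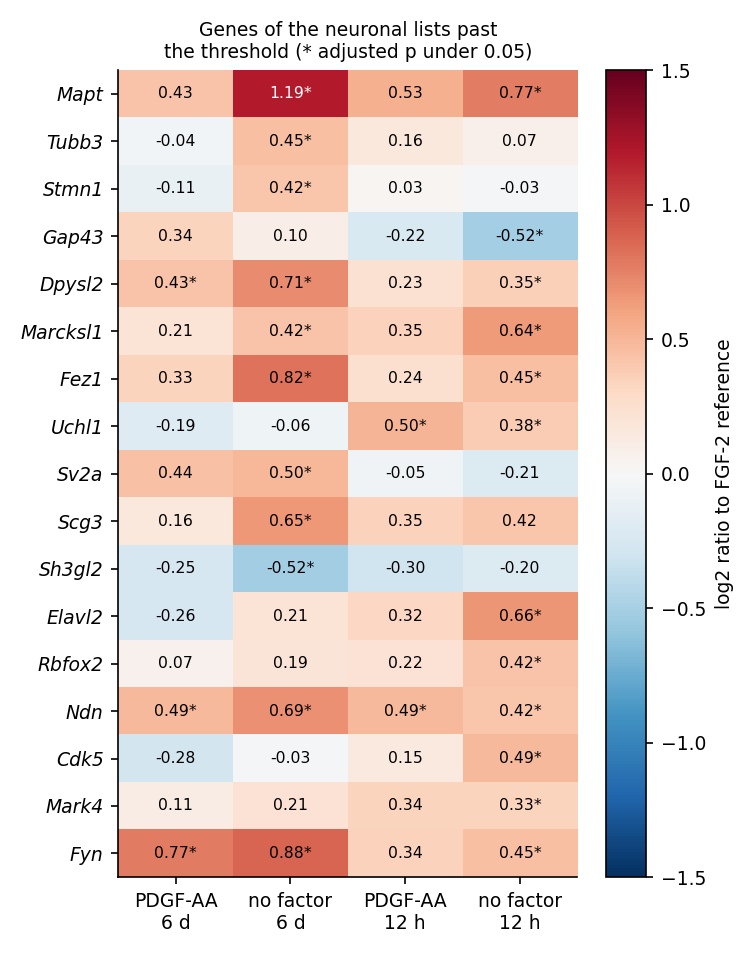
Log2 ratio to FGF-2 cells of the 17 genes of the neuronal lists, members included, that passed the threshold in at least 1 comparison, by condition; colour and number give the limma estimate and a star an adjusted p under 0.05. Most stars are in the 2 columns without factor, and Ndn has one in all 4.

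The list nearest to Mapt and Tubb3 by role, microtubule and growth cone proteins, had 9 of 25 genes measured, the members among them. Of the other 7, 1 rose with PDGF-AA at 6 d, with a median of 0.21, and 4 rose without factor at 6 d, with a median of 0.42. Over all units 3.22% were called with PDGF-AA at 6 d and 13.7% without factor at 6 d. Dpysl2, the growth cone protein CRMP2, rose by 0.43 ± 0.10 with PDGF-AA at 6 d (limma adjusted p = 0.0188) and by 0.71 ± 0.10 without factor at 6 d (limma adjusted p = 0.000112). Fez1, a kinesin adaptor of axon growth, rose by 0.82 ± 0.14 without factor at 6 d and by 0.45 ± 0.14 at 12 h. Marcksl1, an actin-linked substrate of protein kinase C, rose by 0.42 without factor at 6 d and by 0.64 at 12 h. Stmn1, the tubulin-sequestering stathmin, rose without factor at 6 d by 0.42. Gap43, the growth-associated protein of axon tips, fell by 0.52 without factor at 12 h and was 0.61 higher at 6 d than at 12 h (limma adjusted p = 0.0469). In PDGF-AA minus no factor at 6 d the median of these 7 genes was -0.28 beside 0.00 over all units, and none was called.

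Family relatives of the members were mostly not called. Of the tubulin family 2 of 22 listed genes were measured under a single symbol, Tubb3 and Tubb6, and Tubb6 was called in no comparison, with 0.07 in PDGF-AA at 6 d and 0.04 without factor at 6 d. Tubgcp2 and Tubgcp5, parts of the complex that nucleates microtubules, lay between -0.11 and 0.23 in all 4 conditions. Of the microtubule-associated proteins Map4 and Map7d2 were not called. Map7, which recruits kinesin-1 to microtubules, rose by 0.89 ± 0.10 with PDGF-AA at 6 d (limma adjusted p = 8.68e-05) and by 0.44 ± 0.10 without factor at 6 d (limma adjusted p = 0.0081). Among the 4 conditions the Map7 estimate was highest, and the Mapt estimate lowest, in PDGF-AA at 6 d. For Mapt the difference from PDGF-AA at 12 h was -0.10 ± 0.21 and was not called (limma adjusted p = 0.904). The Map7 value with PDGF-AA at 6 d was above that at 12 h by 1.15 (limma adjusted p = 0.000888). Of 11 genes of ubiquitin hydrolysis and handling 7 were measured, and the 6 besides Uchl1, which included the related hydrolases Uchl3 and Uchl5, were not called in any comparison.

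Nefl, the light neurofilament chain and the only neurofilament gene measured of 5 listed, was not called, with -0.43 in PDGF-AA at 6 d, -0.02 without factor at 6 d, 0.02 in PDGF-AA at 12 h and -0.06 without factor at 12 h. Synaptic and vesicle genes numbered 4 measured of 34, of which Scg3, a granule protein (0.65), and Sv2a, a synaptic vesicle protein (0.50), rose and Sh3gl2, endophilin A1, fell by 0.52 without factor at 6 d. The 4 measured genes of 16 in the list of RNA-binding proteins and enolase held Elavl2, a neuronal RNA-binding protein, which rose by 0.66 without factor at 12 h, and Rbfox2, a splicing factor that other cells also express, which rose by 0.42 there. Ndn, necdin, a growth suppressor of postmitotic neurons, rose in all 4 conditions, by 0.49 with PDGF-AA at 6 d, 0.69 without factor at 6 d, 0.49 with PDGF-AA at 12 h and 0.42 without factor at 12 h. Of 18 adhesion genes 6 were measured, of 31 neurogenic factors and Notch ligands 2, and of 25 transmitter genes 1, and none was called.

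Of 20 defining neuronal markers 5 were measured, the 3 members, Gap43 and Nefl, and their mean per array lay between -0.23 and 0.17 in PDGF-AA at 6 d, between 0.20 and 0.45 without factor at 6 d, between 0.09 and 0.31 in PDGF-AA at 12 h and between -0.12 and 0.32 without factor at 12 h. As 3 of these 5 are the members, the mean is not separate from their values. For Gap43 and Nefl, PDGF-AA minus no factor at 6 d was 0.24 and -0.41, and neither was called. Markers of other cell types changed in the same cultures. Of 16 astrocyte markers 10 were measured. At 6 d 3 rose and 2 fell with PDGF-AA, and 7 rose and 2 fell without factor, and their mean per array was -0.13 to 0.70 with PDGF-AA and 0.47 to 1.04 without. Over all units 3.22% were called with PDGF-AA at 6 d and 13.7% without factor at 6 d. Clu, clusterin, rose by 1.52 with PDGF-AA and by 3.22 without factor at 6 d, and Gja1, a gap junction connexin, by 1.20 with PDGF-AA and by 1.89 without factor. Cst3, the protease inhibitor cystatin C, fell in both conditions of 6 d, with a log2 ratio of -2.06 with PDGF-AA and of -2.22 without factor. Entpd2, an ectonucleotidase, was the one unit called in PDGF-AA minus no factor at 6 d (-1.45 ± 0.17, limma adjusted p = 0.00203).

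The oligodendrocyte list had 3 of 14 genes measured, Sirt2, Cd9 and Pdgfra, and at 6 d 2 rose with PDGF-AA and 3 without factor, with mean values per array of 1.02 to 1.97 with PDGF-AA and of 1.00 to 2.32 without factor. Sirt2 had the largest values, 2.63 with PDGF-AA and 3.09 without factor. Cd9 gave 0.60 with PDGF-AA and 0.77 without factor. Pdgfra gave 0.90 with PDGF-AA, not called, and 1.51 without factor. Of 16 progenitor markers 7 were measured, and at 6 d 1 rose and 2 fell with PDGF-AA and 2 rose and 2 fell without factor. Nes, the progenitor filament nestin, fell by 0.83 with PDGF-AA and by 0.89 without factor, and Tnc, the matrix protein tenascin C, rose by 1.51 with PDGF-AA and by 1.75 without factor. Of 10 mesenchymal markers 6 were measured, and at 6 d 3 rose with PDGF-AA and 5 without factor, with mean values per array of 0.19 to 0.90 with PDGF-AA and of 0.82 to 1.24 without factor. Beside these counts, 3.22% of all units were called with PDGF-AA at 6 d and 13.7% without factor at 6 d. The 4 measured microglial markers of 14 and the 3 endothelial ones of 10 were not called in any comparison. The part of these cell types in the values of Mapt, Tubb3 and Uchl1 was not tested.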

How the data were processed

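RNA of rat neural stem and progenitor cells was hybridised with RNA of FGF-2 cells to 16 two-colour mouse cDNA arrays, 40 µg of total RNA per labelling, per the labels. The deposited values are log ratios, taken as log2, with 1 value per feature and array. The sources used here give neither the background correction and normalization nor the log base. Scanner intensities were not used. All 16 value columns were mapped to samples, with 0 left unmapped. The number of arrays, not a read depth, limits the precision.

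Features were named from the chip's mouse annotation. Each array was centred on its median, features of 1 symbol were averaged, and units with values on at least 3 arrays of each group were fitted with lmFit and eBayes (limma 3.58.1, R 4.3.3), with 4 groups and a dye term. All 9 comparisons come from that fit, with Benjamini-Hochberg adjustment over 12559 units. The comparisons with FGF-2 cells share that channel. Differences between conditions were tested only by the direct contrasts, and the orders of estimates given above are descriptions. The fit was tested on simulated data with independent noise on each array. Such data cannot show how RNA preparations shared between arrays affect the p-values. The direction of ratios was read from replication genes, and within a condition 63.3% to 89.8% of features with a mean log ratio over 1 in size on the Cy5 arrays kept their sign when dyes were exchanged. The lowest correlation between arrays of one dye orientation was 0.05, and over all pairs of arrays it was -0.45.

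The members and gene lists were chosen with earlier results of these data known. Besides the members, up to 4 genes per neuronal list past the threshold in any comparison, relatives by family, the 5 genes most correlated with each member and up to 3 markers per cell type are named. Promoters come from RefSeq. Alternatives were no dye term, no centring, rescaled arrays, units measured on all arrays, a fit of only the groups compared, another feature rule, the first title number as a term or restriction, and each array left out.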

Additional observations from a re-analysis of the deposited data

Results flagged for a closer look

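Mapt in PDGF-AA at 6 d had 1 array far from its group. With the dye effect removed, replicate 1 stood at -0.26, and the gap to the next array was 0.916 of the group's range. Without that array the Mapt estimate at 6 d with PDGF-AA was 0.68 and was called.

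The Uchl1 feature H3059F01_1 had 2 arrays apart from the others in PDGF-AA at 6 d. As read, replicate 4 was the highest, at 0.328. With the dye effect removed, replicate 3 was the lowest, at -0.42. In all 40 groups of 4 arrays were examined, over 5 sets of values that overlap, and chance sets apart about 1 group in 20.

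The Uchl1 ratio to FGF-2 cells differed between times with PDGF-AA by -0.69 at 6 d minus 12 h. Uchl1 was below 0 on all 4 arrays at 6 d and above 0 on all 4 at 12 h. The adjusted p from limma was 0.0221.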

How the results depend on the processing

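Mapt without factor at 6 d (1.13 to 1.28) and at 12 h (0.68 to 0.93) and Tubb3 without factor at 6 d (0.40 to 0.48) were called whichever single array was left out. Over the other settings 189 member values kept direction and side of the threshold, 8 lost a call, 3 gained one and 7 changed sign, and over single arrays left out these counts were 414, 10, 3 and 5. The cause of the changes below was not tested.

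Without a dye term calls were lost for Mapt at 12 h without factor (0.77, limma adjusted p = 0.101), for Uchl1 there (0.38) and for Uchl1 at 6 d minus 12 h with PDGF-AA (-0.69). With arrays scaled to a common spread the call of Uchl1 at 12 h without factor was lost (0.34). With only the compared groups fitted, which uses fewer arrays, Mapt with PDGF-AA at 12 h was called (0.53, adjusted p = 0.0302) and Uchl1 at 6 d minus 12 h with PDGF-AA was not (-0.69). With the first title number as a term Mapt with PDGF-AA at 12 h was called (0.53), and Uchl1 at 6 d minus 12 h with PDGF-AA was not (-0.62). Under that term the PDGF-AA values of 6 d rest on 1 array. With that term uncalled values turned positive for Tubb3 with PDGF-AA at 6 d (0.28), Uchl1 in PDGF-AA minus no factor at 6 d (0.0053), and Mapt (0.18) and Tubb3 (0.11) at 6 d minus 12 h with PDGF-AA. On arrays of the commonest number the same values were 0.53 for the called Mapt, -0.64 for the uncalled Uchl1, 0.31 for Tubb3 at 6 d, and 0.20 for Mapt and 0.15 for Tubb3 between times. Feature H3059F01_1 alone gave -0.56 for Uchl1 between times, not called.

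With single arrays left out, Uchl1 at 12 h was 0.46 to 0.55 with PDGF-AA and 0.34 to 0.39 without factor, Mapt with PDGF-AA was 0.33 to 0.68 at 6 d and 0.44 to 0.60 at 12 h, and Uchl1 at 6 d minus 12 h with PDGF-AA was -0.74 to -0.63. The Mapt call with PDGF-AA at 12 h was gained without PDGF-AA 6 d replicate 1 or without replicate 4 of no factor at 12 h (adjusted p = 0.0497). Values near 0 crossed it: Tubb3 with PDGF-AA at 6 d (-0.13 to 0.051), Uchl1 without factor at 6 d (-0.18 to 0.039) and Mapt at 6 d minus 12 h with PDGF-AA (-0.20 to 0.15).

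The counts of all units called moved too. For PDGF-AA at 6 d, no factor at 6 d, PDGF-AA at 12 h and no factor at 12 h against FGF-2 cells, in this order, they were 404, 1723, 378 and 1468, and without a dye term 191, 990, 156 and 830. With single arrays left out they ranged over 157 to 461, 1012 to 1802, 76 to 489 and 740 to 1564, the lowest without PDGF-AA 6 d replicate 2, no factor 6 d replicate 1, PDGF-AA 12 h replicate 1 and no factor 12 h replicate 2. For PDGF-AA at 6 d the count was 622 with arrays scaled, 28 with only that group fitted, 164 with the title term and 175 on arrays of the commonest number, and for no factor at 6 d it was 1123 with that term and 1132 on those arrays. For 6 d minus 12 h with PDGF-AA the count of 135 became 38 without a dye term, 21 with only the compared groups, 12 with the title term, 11 on arrays of the commonest number and 48 to 211 with single arrays left out, lowest without PDGF-AA 6 d replicate 2. For 6 d minus 12 h without factor the count of 235 became 87 without a dye term and 111 to 300 with single arrays left out, lowest without no factor 12 h replicate 1. For PDGF-AA minus no factor at 6 d the count of 1 became 0 without a dye term or with only the compared groups, 2 with arrays scaled and 1 to 58 with single arrays left out, 58 without PDGF-AA 6 d replicate 4. At 12 h the count of 2 became 0 without a dye term or with arrays scaled, 25 with only the compared groups, 17 with the title term, 18 on arrays of the commonest number and 0 to 8 with single arrays left out.

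No paired analysis was possible because the labels give no replicate number shared between conditions, and the replicate numbers used here follow deposition order. The first title number is the term reported above. Only its commonest value is shared by arrays of all 4 conditions, and every other value occurs in a single condition. As 1 PDGF-AA array of 6 d carries the commonest value, the PDGF-AA values of 6 d rest on that array in the fit with this term. Each condition had 4 arrays, and signal over background was not used here.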

Other observations

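The list of tau kinases and phosphatase subunits had 9 of 15 genes measured. Cdk5rap2, among these, is neither a kinase nor a phosphatase subunit, and it was not called. With PDGF-AA at 6 d 1 rose, without factor at 6 d 1 rose, with PDGF-AA at 12 h none was called and without factor at 12 h 3 rose. Of all units 3.22%, 13.7%, 3.01% and 11.7% were called in these conditions, in this order. Fyn, a Src family kinase that binds tau, rose by 0.77 ± 0.11 with PDGF-AA at 6 d (limma adjusted p = 0.000441), by 0.88 ± 0.11 without factor at 6 d (adjusted p = 4.55e-05) and by 0.45 ± 0.11 without factor at 12 h (adjusted p = 0.00935). Cdk5, a kinase of postmitotic neurons, rose by 0.49 ± 0.15 without factor at 12 h (adjusted p = 0.0493), and Mark4, a microtubule affinity regulating kinase, rose by 0.33 ± 0.09 there (adjusted p = 0.0262).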
